A study of Mus musculus with 8 samples.

Results

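The BCL2 family members followed here are 10 mouse genes, taken as every row of the deposited gene table whose name is Bcl2, Bcl2l1, Mcl1, Bax, Bak1, Bid, Bcl2l11, Bbc3, Pmaip1 or Bmf. All 10 were present, 1 row each, among 30266 genes, and all 10 passed the filter on low counts. They were read in whole liver of 8-week-old male mice labelled Mdr2-/-, a strain in which loss of the bile phospholipid transporter leads to cholestatic liver injury. One group had received recombinant FGF21 (rFGF21, 1.0 mg/kg) and the other PBS vehicle, each for 4 h, and 4 libraries per group were used. Both groups carry the same genotype, so a liver without the defect is not among the samples compared. The study's title places the action of FGF21 in hepatic FGFR4 and JNK signalling, and the comparison asks here which transcripts of the mitochondrial death pathway differed shortly after the hormone was given. The labels name liver as the tissue while the protocol text names retina. The hepatocyte gene Alb averaged 53679 CPM after rFGF21 and 52271 CPM after PBS (CPM being reads scaled to a common library size). No read fell on Crx or Rcvrn, which mark photoreceptors, in any of the 8 libraries, and a count of 0 allows up to 3 reads per library.

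Proteins of the BCL2 family decide whether the outer mitochondrial membrane stays closed. The anti-apoptotic proteins BCL2, BCL-xL (encoded by Bcl2l1) and MCL1 hold their relatives in a surface groove. The effectors BAX and BAK form the pores that release cytochrome c, and the BH3-only proteins sense damage and either fill that groove or activate the effectors directly. In mouse liver, hepatocytes need both Bcl2l1 and Mcl1 for survival, and death receptor signals reach the mitochondria of hepatocytes through BID.

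The sequences just before the start sites of 3 members are shown: Bcl2l1, which rose, Mcl1, the most abundant member, and Bcl2l11. Bcl2l11 was the BH3-only member whose mean was lower after rFGF21. The changes of Mcl1 and Bcl2l11 did not pass (edgeR adjusted p = 0.201 and 0.680). Each sequence is the 250 bases before the outermost RefSeq start, 5′ to 3′ on the gene's own strand (build GRCm38.p6). The Bcl2l1 window lies at chr2:152831729-152831978 (minus strand), the Mcl1 window at chr3:95658471-95658720 (plus strand) and the Bcl2l11 window at chr2:128125788-128126037 (plus strand). Capitals mark matches, on either strand, to 5 short motifs of transcription factors: STAT (TTCNNNGAA), ETS (CCGGAAG), AP-1 (TGANTCA), FOXO (GTAAACA) and NF-kappaB (GGG, any 2 bases, then TTTCC).
Bcl2l1: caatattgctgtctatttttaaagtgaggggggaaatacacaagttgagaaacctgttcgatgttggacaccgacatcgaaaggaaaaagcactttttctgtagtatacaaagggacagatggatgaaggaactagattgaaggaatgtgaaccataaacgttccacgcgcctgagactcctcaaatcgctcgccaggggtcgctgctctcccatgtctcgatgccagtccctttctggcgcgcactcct
Mcl1: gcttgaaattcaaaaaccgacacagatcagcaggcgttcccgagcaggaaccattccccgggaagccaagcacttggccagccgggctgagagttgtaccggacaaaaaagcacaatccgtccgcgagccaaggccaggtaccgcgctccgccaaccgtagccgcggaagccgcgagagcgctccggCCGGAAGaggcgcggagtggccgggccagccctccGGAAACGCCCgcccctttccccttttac
Bcl2l11: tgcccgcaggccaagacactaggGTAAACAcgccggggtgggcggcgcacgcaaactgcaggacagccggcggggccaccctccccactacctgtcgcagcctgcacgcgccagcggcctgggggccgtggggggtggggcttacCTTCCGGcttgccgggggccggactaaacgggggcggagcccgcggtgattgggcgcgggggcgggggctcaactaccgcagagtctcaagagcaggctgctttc
The Bcl2l1 window held no match, and windows at any other start sites of the gene were not examined. The Mcl1 window held an ETS match 63 bases and an NF-kappaB match 28 bases before the start, and the Bcl2l11 window a FOXO match 227 bases and an ETS match 105 bases before it. No 2 matches overlapped. RefSeq windows were at hand for 9 of the 10 members. Among the other 6, Bbc3 held an NF-kappaB match and the rest held none. Of 32851 mouse windows of this length, 7.02% held the STAT motif, 6.91% the ETS motif, 6.75% the AP-1 motif, 3.17% the FOXO motif and 1.41% the NF-kappaB motif. The Bcl2l1 window was 47.6% G and C, against 74.8% for Bcl2 and a median of 52.4% over all windows. A match is a run of letters and was not tested as a binding site.

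After rFGF21, 1 of the 10 members passed the test, Bcl2l1, and it was higher. The other 9 did not pass. Of all 18315 genes tested, 2.82% passed in either direction, 1.15% higher and 1.67% lower, by the quasi-likelihood test of edgeR at an adjusted p under 0.05 (Benjamini-Hochberg over all genes). Of the 10 members, 8 had a log2 fold change above 0, as did 50.4% of all genes. Their median was 0.25, against 0.0034 over all genes. At an unadjusted p under 0.05 there were 5 members, beside 18.8% of all genes. In 4 members, Bcl2, Bcl2l1, Mcl1 and Pmaip1, every rFGF21 library lay above every PBS library, which was the case for 5.9% of all genes (12.3% did not overlap in either direction). DESeq2 called 3 members higher, Bcl2l1, Bcl2 and Pmaip1, where it called 8.75% of genes, 4.2% higher. Counts come from whole liver, so fewer cells of a type and less RNA per cell cannot be told apart.

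**Figure D1:**
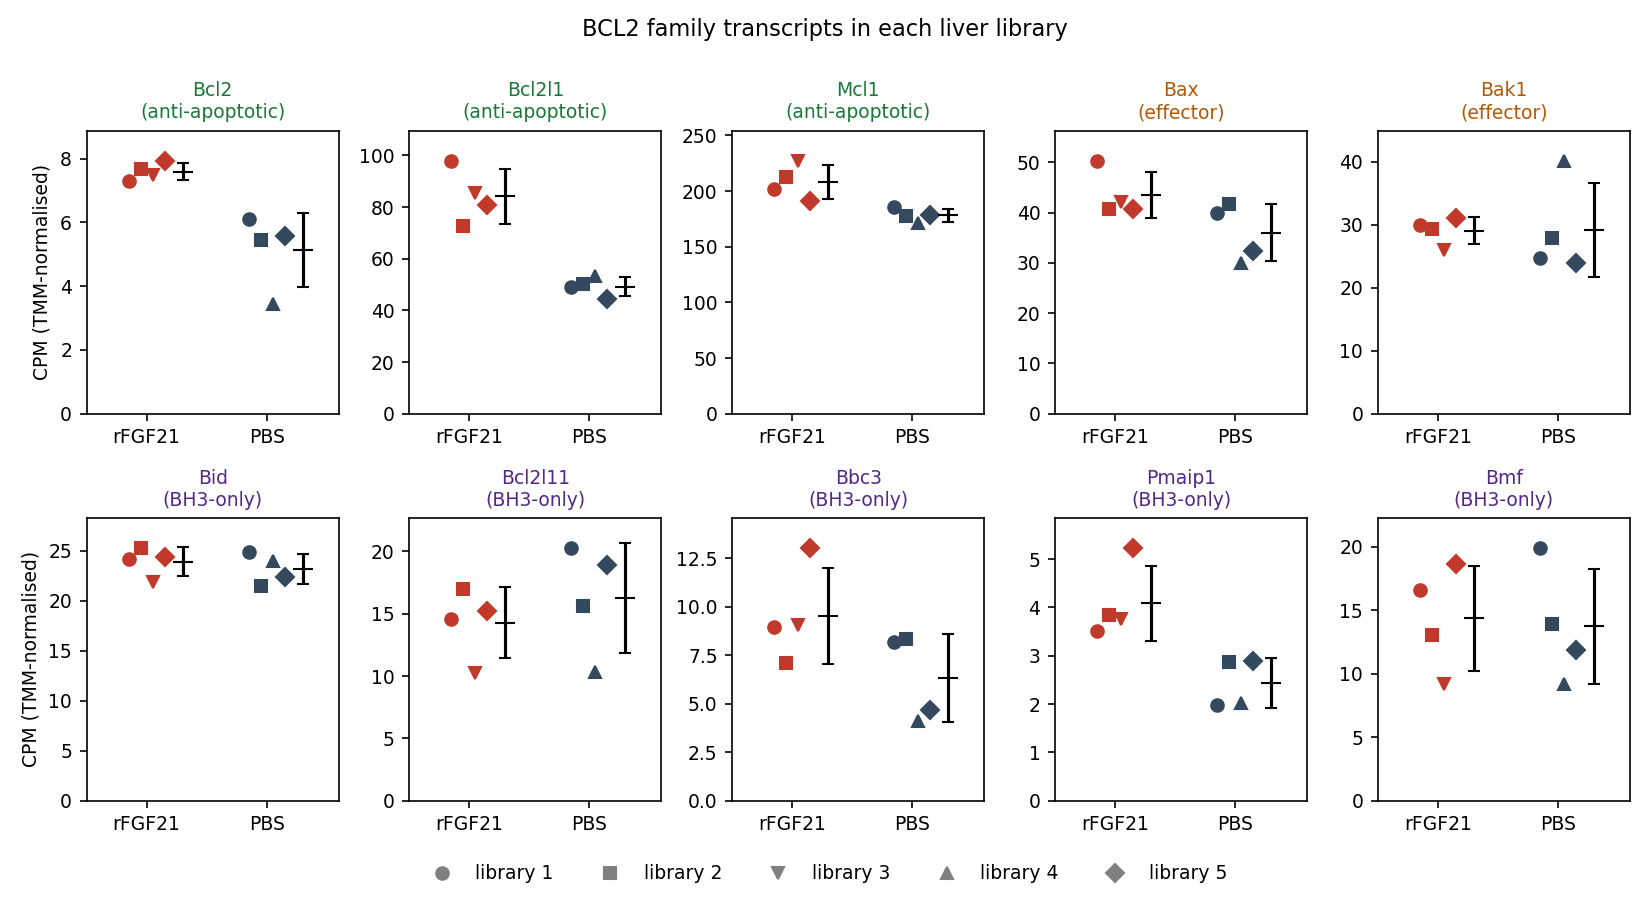
Transcript level of each member in every library, as CPM scaled by TMM (vertical axes start at 0). Each symbol is 1 library, with rFGF21 in red and PBS in dark blue, and the bar at the right of each group is the mean ± SD (n = 4). Bcl2l1 lay between 72.6 and 97.7 CPM in rFGF21 libraries and between 44.6 and 53.1 CPM in PBS libraries.

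Bcl2l1 (ENSMUSG00000007659, GRCm38 chromosome 2, 152780668 to 152831728, minus strand) encodes BCL-xL, which binds BAX, BAK and most BH3-only proteins. Libraries are named by group and by the number in their column of the table. Its level was 97.7, 72.6, 85.2 and 80.9 CPM (scaled by TMM) in rFGF21 libraries 1, 2, 3 and 5, against 49.0, 50.02, 53.1 and 44.6 CPM in PBS libraries 1, 2, 4 and 5. The lowest rFGF21 library stood well above the highest PBS library. The mean was 84.1 ± 10.5 CPM after rFGF21 and 49.2 ± 3.55 CPM after PBS (SD, n = 4 each), 1.71-fold higher. On the log2 scale the fold change was 0.77 ± 0.10 (SE), with an edgeR adjusted p of 0.00652. The call held whichever single library was left out, with an edgeR adjusted p between 0.00975 and 0.0255. The gene has 9 annotated transcripts, and its splicing is known to give a long protective form and a short form that promotes death. Gene counts do not separate transcripts. No other annotated gene shares exon bases with it.

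Mcl1 (chromosome 3, 95658788 to 95663176) encodes a protein of very short half-life that guards against BAK and is the target of the BH3-only protein NOXA. Its level was 202, 212, 227 and 191 CPM in rFGF21 libraries 1, 2, 3 and 5, against 186, 177, 171 and 179 CPM in PBS libraries 1, 2, 4 and 5. The groups did not overlap, but the gap between rFGF21 library 5 and PBS library 1 was small. Its log2 fold change of 0.22 ± 0.09 did not pass (edgeR adjusted p = 0.201).

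Bcl2 (chromosome 1, 106538178 to 106714274), the founding member of the family, was the least abundant per length. It stood at 7.31, 7.68, 7.48 and 7.92 CPM in rFGF21 libraries 1, 2, 3 and 5, against 6.10, 5.44, 3.46 and 5.57 CPM in PBS libraries 1, 2, 4 and 5. All 4 rFGF21 libraries lay in a narrow band above the PBS libraries, of which library 4 was the lowest. The log2 fold change was 0.56 ± 0.18 (edgeR adjusted p = 0.122). Without PBS library 4 it was 0.41, with the same edgeR adjusted p of 0.122. DESeq2, which was run as an alternative, put Bcl2 past the threshold (adjusted p = 0.0370). An antisense gene overlaps 558 exon bases of Bcl2, and without a stated strand setting their reads cannot be told apart.

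Of the 2 effectors, neither passed, at an unadjusted p under 0.05 or with DESeq2. Bax (chromosome 7, 45461697 to 45466898), whose protein moves from the cytosol to mitochondria when activated, stood at 50.2, 40.7, 42.0 and 40.7 CPM in rFGF21 libraries 1, 2, 3 and 5, against 39.8, 41.8, 30.00 and 32.3 CPM in PBS libraries 1, 2, 4 and 5. PBS library 2 lay within the rFGF21 range. Bax had a log2 fold change of 0.27 ± 0.12 (edgeR adjusted p = 0.272). Bak1 (chromosome 17, 27019810 to 27029009) encodes the effector that resides in the mitochondrial membrane. It stood at 29.9, 29.2, 26.0 and 31.0 CPM in rFGF21 libraries 1, 2, 3 and 5, against 24.7, 27.9, 40.1 and 23.9 CPM in PBS libraries 1, 2, 4 and 5. PBS library 4 lay far above the other libraries of either group. The log2 fold change was -0.0039 ± 0.1555 (SE; edgeR adjusted p = 0.994), and 0.19 without PBS library 4 (edgeR adjusted p = 0.308). Bak1 shares 437 exon bases with Ggnbp1 on the opposite strand, and Bax shares 192 with the predicted gene Gm45808.

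None of the 5 BH3-only members passed with edgeR. An unadjusted p under 0.05 was found for 2 of them, Pmaip1 and Bbc3, beside 18.8% of all genes. DESeq2 called 1, Pmaip1, beside 8.75% of all genes. Pmaip1 encodes NOXA, which binds MCL1 and hastens its breakdown. Its level was 3.52, 3.84, 3.75 and 5.22 CPM in rFGF21 libraries 1, 2, 3 and 5, against 1.97, 2.88, 2.02 and 2.88 CPM in PBS libraries 1, 2, 4 and 5. The groups did not overlap, and rFGF21 library 5 was the highest. Its log2 fold change of 0.74 ± 0.21 was close in size to that of Bcl2l1 (edgeR adjusted p = 0.0957, DESeq2 adjusted p = 0.0188). With between 118 and 395 reads per library it was the most thinly read of the 10 members.

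Bbc3 (chromosome 7, 16308393 to 16318205) encodes PUMA, a p53 target that binds every anti-apoptotic protein. It stood at 8.94, 7.10, 9.08 and 13.02 CPM in rFGF21 libraries 1, 2, 3 and 5, against 8.21, 8.37, 4.12 and 4.66 CPM in PBS libraries 1, 2, 4 and 5. The groups overlapped: PBS libraries 1 and 2 lay above rFGF21 library 2, while PBS libraries 4 and 5 lay well below. The log2 fold change was 0.59 ± 0.26 (edgeR adjusted p = 0.262), 0.40 without rFGF21 library 5 and 0.75 without PBS library 2.

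Bcl2l11 (chromosome 2, 128126038 to 128162547) encodes BIM, a FOXO target that ERK marks for destruction. It was read at 14.6, 16.98, 10.3 and 15.3 CPM in rFGF21 libraries 1, 2, 3 and 5, against 20.3, 15.6, 10.4 and 18.9 CPM in PBS libraries 1, 2, 4 and 5. The groups overlapped, with nearly the same lowest value, while PBS libraries 1 and 5 lay above every rFGF21 library. Its log2 fold change, -0.19 ± 0.21, was the most negative of the 10 (edgeR adjusted p = 0.680), and -0.36 without PBS library 4 (edgeR adjusted p = 0.283). It was -0.06 without rFGF21 library 3, -0.07 without PBS library 1 and -0.10 without PBS library 5.

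Bid (chromosome 6, 120891930 to 120916853), which caspase-8 cleaves to carry a death receptor signal to mitochondria, was the steadiest BH3-only member. Its range was 21.9 to 25.3 CPM in rFGF21 libraries and 21.5 to 24.9 CPM in PBS libraries, with a log2 fold change of 0.04 ± 0.09 (edgeR adjusted p = 0.842). It shares 628 exon bases with Bcl2l13 on the opposite strand. Bmf (chromosome 2, 118528757 to 118549687), whose protein is held on the actin cytoskeleton until released, ranged from 9.17 to 18.6 CPM in rFGF21 libraries and from 9.18 to 19.9 CPM in PBS libraries. Its log2 fold change was 0.07 ± 0.25 (edgeR adjusted p = 0.923), and it was -0.08 without PBS library 4 or without rFGF21 library 5.

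**Figure D2:**
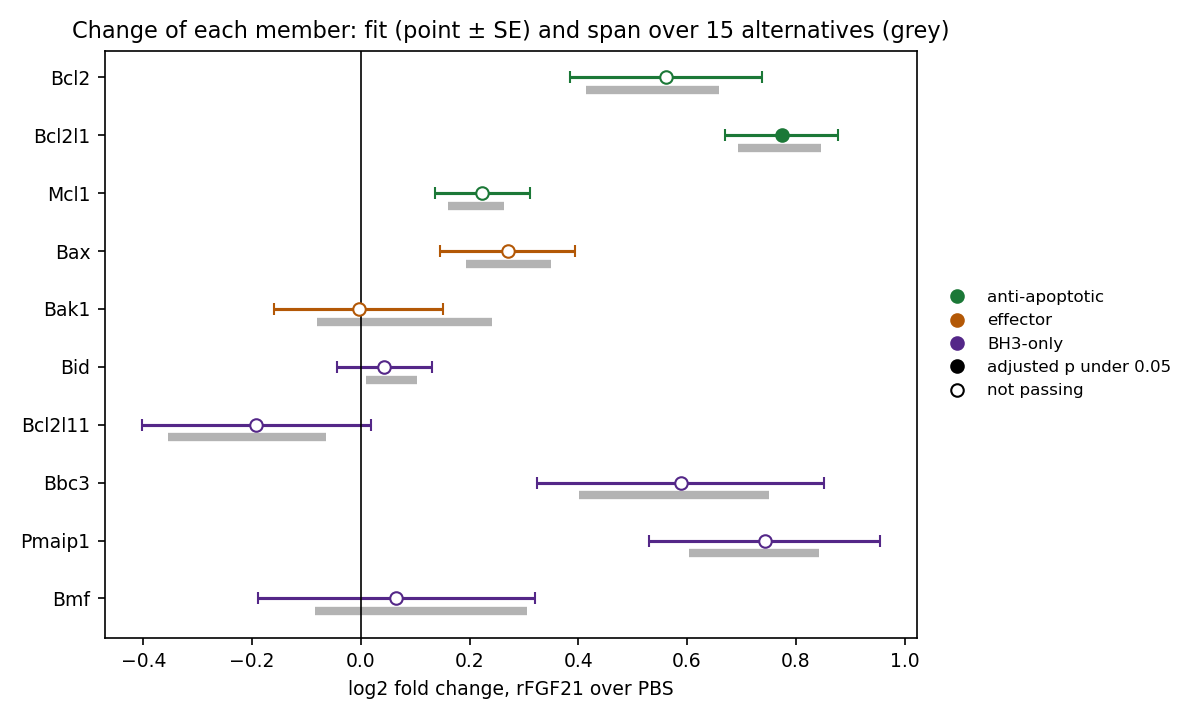
Log2 fold change of each member, rFGF21 over PBS (horizontal axis), with the fit's SE as error bars and colour by class; a filled point passed at an adjusted p under 0.05. Grey bars span the values under 15 alternative settings. Bcl2l1 is the 1 filled point, and its alternatives ran from 0.69 to 0.85.

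The members also differed in how far libraries of 1 group spread. The coefficient of variation of Mcl1 was 7.28% among rFGF21 libraries and 3.34% among PBS libraries, and that of Bid 6.04% and 6.55%. That of Bmf was 29.0% among rFGF21 and 33.1% among PBS libraries, and that of Bbc3 26.2% and 35.7%. Bcl2 varied by 3.46% among rFGF21 libraries and by 22.6% among PBS libraries. PBS library 4 had the lowest value of its group in 6 members and the highest in Bcl2l1 and Bak1, and rFGF21 library 5 had the highest value of its group in 5 members. PBS library 4 also had 7.96% of its reads on mitochondrial genes, against 3.27% to 4.55% in the other 7 libraries. The fold change of Bcl2l1 was as large without PBS library 4 (log2 fold change 0.82, edgeR adjusted p = 0.0105).

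Levels can be set between genes only per length, for which CPM was divided by the kilobases of annotated exon of each gene (GENCODE release M21). Exon bases of all annotated transcripts of a gene were pooled, whichever of them the liver makes. The order of genes and the shares of classes can depend on this choice of length. On that scale Mcl1 was the most abundant member, at 60.9 ± 4.43 CPM per kilobase after rFGF21 and 52.2 ± 1.74 after PBS (SD, n = 4 each). Bax followed, at 27.5 CPM per kilobase after rFGF21 and 22.8 after PBS. Bcl2l1 ranked above Bak1 after rFGF21, at 18.3 against 12.1 CPM per kilobase, with no overlap of their libraries. After PBS it ranked below Bak1, at 10.7 against 12.1 CPM per kilobase, and their libraries overlapped. Bid came next, at 6.74 CPM per kilobase after rFGF21 and 6.53 after PBS. Bbc3, Bmf and Bcl2l11 averaged 1.78 to 4.49 CPM per kilobase after rFGF21 and 2.03 to 2.98 after PBS, and neighbours in the order among these 3 overlapped in both groups. Pmaip1 and Bcl2 were the lowest. Pmaip1 averaged 1.49 CPM per kilobase after rFGF21 and 0.892 after PBS, and Bcl2 0.8295 after rFGF21 and 0.562 after PBS, with no overlap between these 2 genes in either group.

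**Figure D3:**
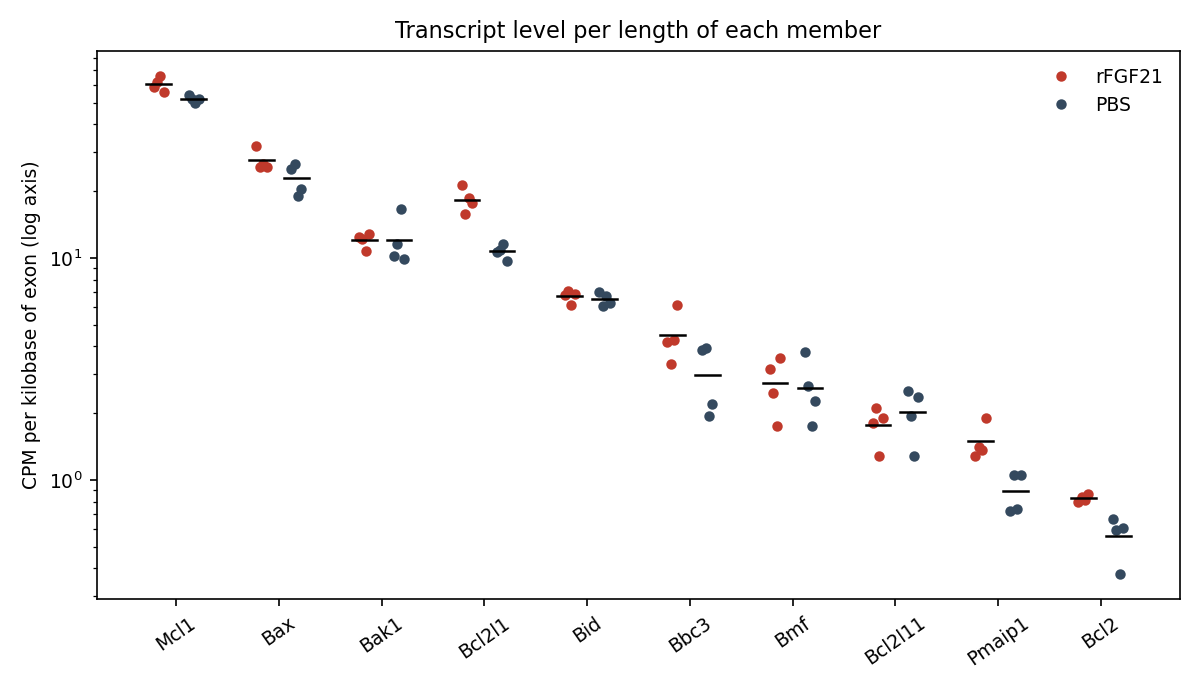
CPM per kilobase of exon for each member (log axis), ordered by the mean of PBS libraries. Each point is 1 library, rFGF21 in red at the left and PBS in dark blue at the right of each gene, and lines are group means. Mcl1 stands highest in both groups and Bcl2 lowest, at 0.798 to 0.865 CPM per kilobase in rFGF21 libraries and 0.377 to 0.667 in PBS libraries.

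The 3 anti-apoptotic members together summed to 74.4 to 85.7 CPM per kilobase in rFGF21 libraries and 62.0 to 65.7 in PBS libraries. The 2 effectors summed to 37.5 to 44.3 CPM per kilobase in rFGF21 and 30.4 to 38.1 in PBS libraries, and the 5 BH3-only members to 14.8 to 20.3 in rFGF21 and 12.5 to 17.9 in PBS libraries. The sums of the anti-apoptotic class did not overlap between the groups of libraries, while those of the other classes did. As each of the 3 anti-apoptotic members was higher in every rFGF21 library, their sum could not overlap. The sum of all 10 members contains the anti-apoptotic sum and is not separate evidence. It did not overlap either, at 133.2 to 142.8 CPM per kilobase in rFGF21 libraries and 107.2 to 119.1 in PBS libraries. As a share of the 10 members' summed level per length, the anti-apoptotic class held 55.7% to 62.1% after rFGF21 and 54.1% to 58.4% after PBS. These shares overlapped. Within the class, Bcl2l1 held 11.9% to 14.9% of the summed level after rFGF21, against 8.98% to 10.5% after PBS, and Mcl1 held 41.4% to 48.1% after rFGF21 and 44.3% to 48.8% after PBS. Mcl1 exceeded Bcl2l1 by 2.78-fold to 3.93-fold in rFGF21 libraries and by 4.32-fold to 5.38-fold in PBS libraries. Sums of transcripts carry no test and do not measure the proteins.

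To set the classes against each other within a library, the ratio of each anti-apoptotic member to each of the 7 pro-apoptotic members was formed from the CPM values, which does not depend on library scaling. The exact permutation test (two-sided) of 4 libraries against 4 cannot give a p below 0.0286, and over the 21 ratios none passed after Benjamini-Hochberg adjustment (smallest adjusted p = 0.1, with 6 ratios at the smallest p). Bcl2l1 had a higher mean ratio after rFGF21 against 7 of 7 pro-apoptotic members. That count follows from its own log2 fold change, the largest of the 10 members (0.77, with Pmaip1 next at 0.74). These 7 ratios share the counts of Bcl2l1 and are not separate evidence for a difference between the classes. The difference in log2 ratio was 0.49 against Bax, 0.74 against Bak1 and 0.72 against Bid, and in these 3 the groups did not overlap (exact permutation p = 0.0286 each, the smallest possible). Against Bbc3 and Pmaip1 it was 0.14 and 0.02, with wide overlap. For Mcl1 the ratio to Pmaip1 was lower after rFGF21, by a log2 difference of -0.53 with no overlap (exact permutation p = 0.0286, adjusted p = 0.1). The other 6 Mcl1 ratios differed by -0.41 to 0.39 and overlapped. The log2 ratio of Bcl2 to Bcl2l11 averaged -0.89 ± 0.30 after rFGF21 and -1.65 ± 0.12 after PBS (SD, n = 4 each), a difference of 0.76, and that to Bid differed by 0.55, both without overlap (exact permutation p = 0.0286, adjusted p = 0.1).

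**Figure D4:**
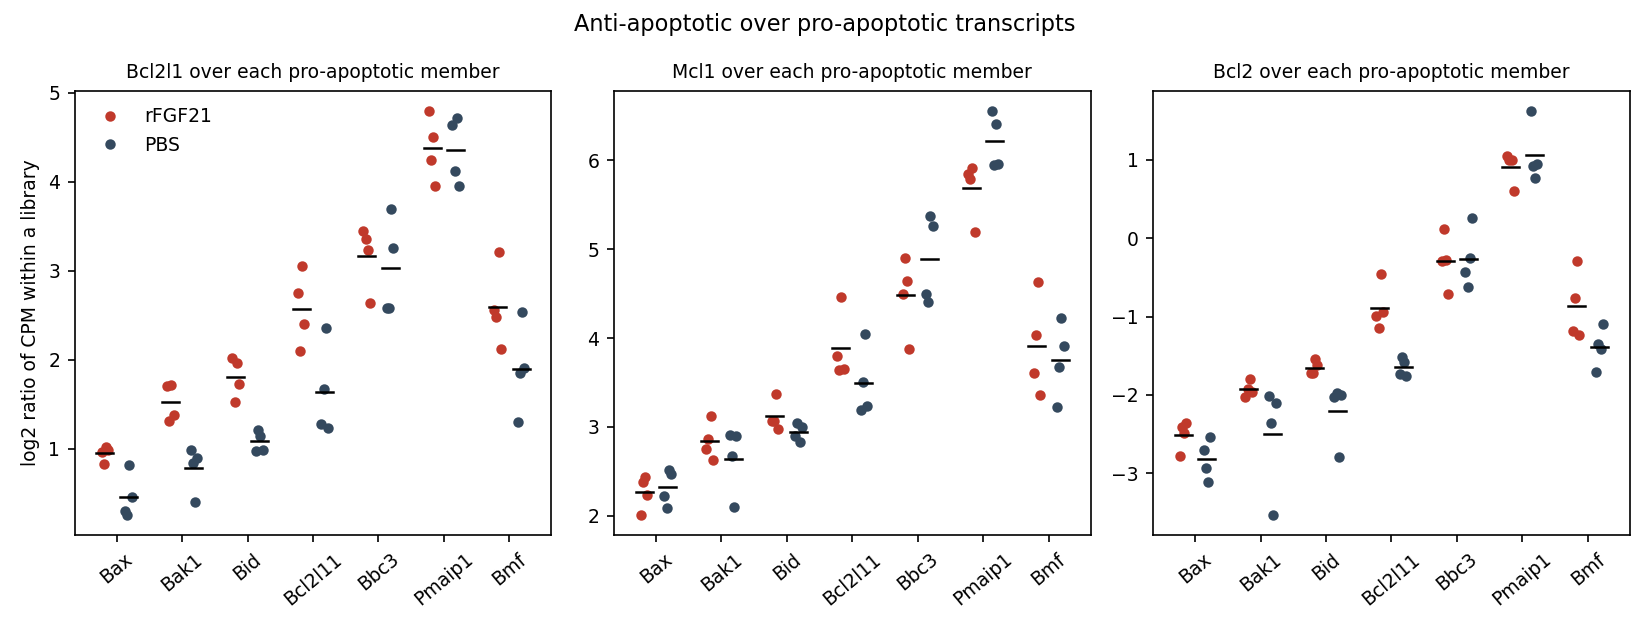
Log2 ratio of CPM within each library for Bcl2l1, Mcl1 and Bcl2 over each of the 7 pro-apoptotic members. Points are libraries, rFGF21 in red at the left and PBS in dark blue at the right, and lines are group means; heights between genes also reflect transcript length. For Bcl2l1 over Bax, Bak1 and Bid all red points stand above all blue ones, by 0.49 to 0.74 on average.

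Of 72 tested genes that surround the family, 2 passed, both higher, next to 2.82% of all genes, and 18 had an unadjusted p under 0.05, next to 18.8% of all genes. One was Birc2, which encodes cIAP1, an inhibitor of apoptosis protein that acts on TNF receptor signalling. It stood at 68.8, 73.7, 69.3 and 64.8 CPM in rFGF21 libraries 1, 2, 3 and 5, against 47.3, 46.7, 33.6 and 55.9 CPM in PBS libraries 1, 2, 4 and 5. The groups did not overlap (log2 fold change 0.59 ± 0.13, edgeR adjusted p = 0.0457). The other was Bcl2l14, a BCL2-like gene of unsettled function, at 2.97, 2.60, 3.49 and 2.72 CPM in rFGF21 libraries 1, 2, 3 and 5 and 1.48, 1.02, 1.69 and 1.28 CPM in PBS libraries 1, 2, 4 and 5 (log2 fold change 1.11 ± 0.22, edgeR adjusted p = 0.0291). Again no libraries overlapped. Both calls were fragile: Birc2 passed without PBS library 4 or 5 and Bcl2l14 without PBS library 4, and leaving out any other library ended the call (edgeR adjusted p up to 0.118 for Birc2 and 0.0878 for Bcl2l14).

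The 8 inhibitor of apoptosis genes included 3 in which every rFGF21 library was higher (5.9% of all genes): Birc2, Birc3 (0.50 ± 0.13, edgeR adjusted p = 0.0661) and Naip2 (0.39 ± 0.11, edgeR adjusted p = 0.0901), and their median log2 fold change was 0.23. Naip2 has close copies in the genome, so its reads are uncertain. Among 4 other anti-apoptotic relatives tested, none passed (1 at an unadjusted p under 0.05, beside 18.8% of all genes, and 0 with DESeq2). They include Bcl2a1b (0.82 ± 0.34, edgeR adjusted p = 0.220) and Bcl2a1a (0.50 ± 0.27, edgeR adjusted p = 0.348), near-identical leukocyte genes whose reads could be split between copies. Bcl2a1b stood at 0.54 without PBS library 4 and Bcl2a1a at 0.34 without rFGF21 library 2. Bcl2l10 and Hrk had at most 9 reads in any library and were not tested. Among 9 other effector, BH3-only and BCL2-like genes, Bcl2l14 was the 1 that passed. The mitophagy receptor Bnip3 stood at a log2 fold change of -0.19 ± 0.11 (edgeR adjusted p = 0.360), which was -0.12 without PBS library 5. The effector-like Bok was at 0.51 ± 0.31 (edgeR adjusted p = 0.411), with 0.24 without PBS library 4 and 0.77 without PBS library 1.

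None of 13 genes of the mitochondrial death machinery passed with edgeR, 4 had an unadjusted p under 0.05, and DESeq2 called 1, Apaf1. Over all genes tested, for these lists and those that follow, the shares were 2.82% with edgeR and 18.8% at an unadjusted p under 0.05. With DESeq2 the share was 8.75%. Apaf1, the scaffold of the apoptosome, had a log2 fold change of 0.49 ± 0.15 (edgeR adjusted p = 0.121), and Cycs, cytochrome c, one of -0.38 ± 0.13 (edgeR adjusted p = 0.148). Without PBS library 4, the library with the most mitochondrial reads, that of Cycs was -0.23. The death receptor pathway had 0 of 9 genes passing, 0 at an unadjusted p under 0.05 and 0 with DESeq2, with Fas at -0.20 ± 0.11 (edgeR adjusted p = 0.349) and Fasl at -0.70 ± 0.41 (edgeR adjusted p = 0.391). Fas stood at -0.13 without PBS library 2. Of 16 transcription factors known to act on family genes none passed (5 at an unadjusted p under 0.05, 3 with DESeq2). Nfkb1, a subunit of NF-kappaB, came closest at 0.42 ± 0.10 (edgeR adjusted p = 0.0505), and it passed without PBS library 4 (edgeR adjusted p = 0.0401). Cebpb, a liver factor of the acute phase, stood at -1.02 ± 0.26 (edgeR adjusted p = 0.0628), and passed without rFGF21 library 2 (log2 fold change -1.29, edgeR adjusted p = 0.0265). Among 13 genes whose products stabilise, degrade or hold BCL2 proteins none passed (4 at an unadjusted p under 0.05, 1 with DESeq2). The ubiquitin ligase gene Btrc was at -0.40 ± 0.11 (edgeR adjusted p = 0.0972) and the chaperone cofactor Bag1 at -0.26 ± 0.09 (edgeR adjusted p = 0.171).

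Markers of other liver cells were read beside these results. All 8 cholangiocyte markers had a log2 fold change above 0, as did 50.4% of all genes, with a median of 0.64. None passed with edgeR, but 6 of 8 had an unadjusted p under 0.05, beside 18.8% of all genes, and DESeq2 called 3, beside 8.75%. Their summed level was 245 to 386 CPM in rFGF21 and 174 to 274 CPM in PBS libraries. Without Spp1, which made up 74.7% of the sum, it was 60.5 to 110 CPM in rFGF21 and 41.4 to 62.0 CPM in PBS libraries, and the groups overlapped either way. All 7 neutrophil markers tested were above 0 and none passed with edgeR (2 at an unadjusted p under 0.05, 0 with DESeq2). Their sums ran from 1486 to 2768 CPM in rFGF21 and from 1272 to 2265 CPM in PBS libraries, but Lcn2 made up 99.0% of them. Without Lcn2 the sums were 13.8 to 27.6 CPM in rFGF21 and 11.6 to 19.1 CPM in PBS libraries. Ly6g, which defines neutrophils, was at 0 in 7 of the 8 libraries. Of 8 Kupffer cell and macrophage markers 6 were below 0, and none passed with edgeR (1 at an unadjusted p under 0.05, 0 with DESeq2). Their sums ran from 360 to 720 CPM in rFGF21 and from 544 to 886 CPM in PBS libraries. The 8 hepatocyte markers had 6 below 0, and none passed with edgeR (2 at an unadjusted p under 0.05, 1 with DESeq2). Their sums ran from 58751 to 72947 CPM in rFGF21 and from 62127 to 80722 CPM in PBS libraries, but Alb made up 77.5% of them. Without Alb the sums were 13129 to 14913 CPM in rFGF21 and 13373 to 19554 CPM in PBS libraries. The 8 stellate cell and fibroblast markers summed to 830 to 1293 CPM in rFGF21 and 670 to 940 CPM in PBS libraries, with 7 of 8 above 0. Col3a1 made up 48.4% of these sums. None of the 8 passed with edgeR (3 at an unadjusted p under 0.05, 1 with DESeq2). The 8 sinusoidal endothelial markers summed to 112 to 198 CPM in rFGF21 and 111 to 238 CPM in PBS libraries. None of them passed with edgeR (0 at an unadjusted p under 0.05, 0 with DESeq2). The 8 B and T cell markers summed to 9.24 to 10.2 CPM in rFGF21 and 8.33 to 10.4 CPM in PBS libraries. None of these passed with edgeR either (1 at an unadjusted p under 0.05, 1 with DESeq2). The part of these cells in the values of Bcl2l1 and the other members was not tested.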

How the data were processed

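The deposited table gives read counts per gene, per the file headers. Bowtie 0.12.2 and mm8 are named in the submitters' processing notes, yet all 10 members have the coordinates of GENCODE mouse release M21 (GRCm38), which are the ones printed. The counting tool and the strand setting were not given in the sources used here. The 8 count columns for which the table also has an FPKM column were used, 4 per group; no printed value rests on the 2 other count columns or the 8 FPKM columns. Column names give the group but not the sample. The labels leave unsaid whether each sample is a separate animal, and p-values then cover only the variation among these libraries, which may be technical. Totals ran from 62756328 to 73313449 reads. No 2 libraries of a group agreed within sampling noise (chi-square over degrees of freedom at least 38.5).

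Counts were analysed with edgeR 4.0.16 under R 4.3.3: filterByExpr, TMM scaling and the quasi-likelihood F test without covariates, adjusted by Benjamini-Hochberg over all genes tested, threshold 0.05. SEs follow from the F statistic. CPM is the count scaled to the TMM-adjusted library size. Levels per length had been planned on the authors' FPKM values; they were computed from CPM and exon length instead, since no label ties a column to 1 sample and only 1 measure was kept, a choice made after the FPKM results had been seen. Alternatives were DESeq2 1.42.0, limma-voom (limma 3.58.1), other scalings and filters, and leaving out each library. The step was tested on simulated data. Ratios within libraries were tested by exact permutation, a test added after seeing the data. Members and gene lists were chosen with earlier results of these data known. Named were all members, of each list up to 4 genes that passed and up to 2 with the smallest p that did not, and up to 3 cell markers a list that passed. Of 77 list genes, 74 were in the table. Motif searches used RefSeq sequences of GRCm38.p6.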

Additional observations from a re-analysis of the deposited data

Results flagged for a closer look

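Among 26 named genes and 2 groups each, 1 library stood far from the other 3 of its group: Bax in rFGF21 library 1 was 50.2 CPM, while the other rFGF21 libraries lay between 40.7 and 42.0 CPM. The gap was 0.863 of the group's range, above Dixon's 95% limit for 4 samples, which chance passes in about 1 in 20 groups. Without rFGF21 library 1 the log2 fold change of Bax was 0.19 (edgeR adjusted p = 0.511). The same library was also the highest for Bcl2l1.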

How the results depend on the processing

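Bcl2l1 stayed higher, and past the threshold, in 14 of 15 alternatives. The exception was the fit with the column number as a replicate block, where its log2 fold change was 0.80 (edgeR adjusted p = 0.0845), 12 genes passed in all, and 0 members and 0 related genes did. Whether the numbers pair the libraries is not known, and column numbers are not the labels' sample numbers. Libraries numbered 1, 2 and 5 correlated across groups in their deviations from the group means at 0.07, -0.04 and -0.10. So few correlations cannot exclude a pairing. Only these numbers occur in both groups, so rFGF21 library 3 and PBS library 4 did not inform the fold change of the block fit. DESeq2 called 1426 genes, 3 members and 9 related genes, against 516, 1 and 2 with edgeR. Without a filter on low counts 198 genes and 0 related genes passed. Leaving out 1 library gave 131 (without rFGF21 library 1) to 486 genes (without PBS library 4), 1 member each time, and 0 to 4 related genes. The log2 fold change of Bak1 turned to 0.0053 with upper-quartile scaling, 0.0056 with DESeq2, 0.033 with limma-voom and 0.24 with the block, and ran from -0.080 to 0.19 with 1 library left out. That of Bmf ran from -0.084 to 0.31 with 1 library left out. The cause of these differences was not tested. Tests with limma on the FPKM columns were run and called fewer genes than edgeR, with Bcl2l1 still past the threshold. Their values are not printed, because only 1 measure, the counts, was kept. Count columns too are tied to a group and not to single samples. The FPKM tests were set aside after they had been seen, so their result cannot be checked from the values printed here. Pmaip1, with as few as 118 reads in a library, and Bcl2, with as few as 202, had the fewest reads and so the largest counting error.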
